A study of Mus musculus with 16 samples.

Results

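Imprinted genes are expressed mainly from 1 of the 2 parental copies. A set of 41 imprinted genes and close neighbors of imprinted genes was examined in the dorsal raphe nucleus (DRN), the main source of serotonin fibers to the forebrain. The set was given by symbol with no cutoff on a measured value, though with earlier results of these data known. Of the 41 symbols, 36 had a row among the 14504 genes of the deposited table, and Dio3, Snurf, Mkrn3, Airn and Peg12 had none. Every exonic base of Snurf (100%) is shared on the same strand with annotated neighbors including Snrpn, so its reads could not be told apart from theirs. PolyA RNA had been sequenced from 16 libraries of male C57BL/6 mice. Control mice without defeat gave 3 saline libraries (con_sal_102, con_sal_104, con_sal_114) and 3 libraries after dexamethasone (DEX; con_dex_101, con_dex_116, con_dex_122), a synthetic agonist of the glucocorticoid receptor given at 2 mg/kg, with tissue taken 6 h later. Stressed mice had met CD1 aggressors in a 30 day social defeat procedure and had been sorted by clustering of their behavior into passive coping (PS, dep1 in the labels) and active coping (AS, dep2). PS mice gave 2 saline (dep1_sal_62, dep1_sal_68) and 3 DEX libraries (dep1_dex_6, dep1_dex_34, dep1_dex_64), and AS mice gave 3 saline (dep2_sal_8, dep2_sal_14, dep2_sal_40) and 2 DEX libraries (dep2_dex_38, dep2_dex_42). The tissue was a punch from cryosections, so it held every cell type of the region, and fewer cells of a type cannot be told apart from less RNA per cell.

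In imprinting, a methylation mark set in the egg or the sperm (a differentially methylated region) is kept in the embryo and decides which parental copy is read. Imprinted genes lie in clusters that share such a control region, in which long noncoding RNAs and coding genes are often read from opposite parental copies. Many of them act in fetal growth, feeding, maternal care and sleep, and several are highly expressed in hypothalamus and monoaminergic nuclei. These libraries report the sum of both parental copies, and nothing here measures which copy was read.

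The libraries held 38207157 (dep1_dex_34) to 62447298 (dep2_sal_8) reads in the listed genes. All 7 serotonin neuron markers examined were listed, and Tph2, the enzyme that starts serotonin synthesis in brain, lay between 91764 and 182191 normalized counts. The study had set aside DRN samples with low Tph2, so that level is in part a result of its selection. A normalized count is a gene's read count divided by a size factor of its library. The libraries con_sal_104 and dep2_sal_40 stood apart from the rest, with 248 and 228 of the listed genes at 0 against 56 to 171 in the other 14. Of all genes, 17.6% had their lowest value in con_sal_104 and 20.4% their highest in dep2_sal_40. The library dep1_dex_64 held the lowest value of 13.9% and the highest of 17.1% of genes, without many genes at 0. Several results that rest on con_sal_104 and dep2_sal_40 are given with and without both, and some others with their range over all settings tried. The library dep1_dex_64 was left out only in the settings that drop single libraries.

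The promoter windows of the 2 most abundant members and of a start region shared by 2 members are shown first, because the levels and the covariation below turn on these genes. RefSeq windows of 300 bases (250 before and 50 after a gene's start, build GRCm38.p6) were found for 35 of the 41 symbols, in 50 windows. They were searched on both strands for TGCCGC, the core bound by the imprint-keeping factor ZFP57, for TGACGTCA, the palindromic cyclic AMP response element, and for the core of the palindromic glucocorticoid response element (GAACA, 3 bases of any kind, TGTTC). The second motif was added after the windows had been read. Capitals mark these letters (GCGGCA is TGCCGC on the other strand).
Usp29 (chr7:6730333-6730632, plus strand): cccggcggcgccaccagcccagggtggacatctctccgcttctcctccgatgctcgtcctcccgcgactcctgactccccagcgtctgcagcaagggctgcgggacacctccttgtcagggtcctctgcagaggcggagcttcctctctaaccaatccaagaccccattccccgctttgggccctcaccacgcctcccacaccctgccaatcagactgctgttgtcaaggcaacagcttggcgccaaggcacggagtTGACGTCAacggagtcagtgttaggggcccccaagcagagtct
Meg3 (chr12:109540746-109541045, plus strand): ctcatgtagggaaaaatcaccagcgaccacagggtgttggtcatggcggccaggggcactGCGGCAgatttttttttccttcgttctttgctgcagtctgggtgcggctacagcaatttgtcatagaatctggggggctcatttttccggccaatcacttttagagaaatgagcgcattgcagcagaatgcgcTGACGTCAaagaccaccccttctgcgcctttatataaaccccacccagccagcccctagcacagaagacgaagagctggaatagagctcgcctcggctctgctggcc
Nap1l5 (chr6:58907077-58907376, minus strand): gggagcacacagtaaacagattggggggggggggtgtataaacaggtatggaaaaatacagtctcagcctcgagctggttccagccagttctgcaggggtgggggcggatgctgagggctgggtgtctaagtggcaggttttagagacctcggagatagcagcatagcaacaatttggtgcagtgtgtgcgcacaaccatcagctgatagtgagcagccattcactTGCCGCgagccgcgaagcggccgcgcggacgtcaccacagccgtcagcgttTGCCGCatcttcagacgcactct

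The Usp29 window is also that of Peg3, since 263 of its 300 bases lie in the Peg3 window on the other strand and the annotated starts of the 2 genes are 147 bases apart. TGCCGC occurred in 14 of the 50 member windows (28%), against 11.6% of all 32851 windows of the table. Some windows overlap: the Snurf window and the Snrpn window with this motif are the same stretch, and 2 Mest windows with it start 3 bases apart. With overlapping windows merged on either strand, 12 of 46 member stretches (26.1%) and 11.5% of all 29061 stretches held it. It was found in windows of 13 members: Nap1l5, Meg3, Nnat, Mest, Snrpn, Snurf, Zim1, Plagl1, Zdbf2, Grb10, Copg2, Commd1 and Mcts2. TGACGTCA occurred in 4 member windows (8%), those of Meg3, of Peg3 and Usp29, which overlap, and of Zdbf2, against 1.79% of all windows, or in 3 merged stretches (6.52%) against 1.71%. The glucocorticoid response element was in none of the 50 member windows and in 0.0578% of all windows, and no match says only that these letters are not in these 300 bases. Member windows held a median of 14 CpG dinucleotides, against 7 over all windows.

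The long noncoding RNAs of the Dlk1-Dio3 domain on chromosome 12 (Meg3, Rian and Mirg) are read from the maternal copy and are hosts of microRNAs. RefSeq places 61 microRNA genes in this domain. Of their mature microRNAs, 3 lie in the span of Meg3, 6 in that of Rian, 26 in that of Mirg and 13 in that of Rtl1, a retrotransposon-derived coding gene. In the domain 9 seeds (bases 2 to 8, in capitals) are shared by 2 or more differently named microRNAs, and the 3 shared seeds that occur in the spans of these noncoding RNAs are shown to tell what the hosts carry. Mature microRNAs were not measured in polyA RNA.
mmu-miR-370-5p (in Rian): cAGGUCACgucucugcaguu
mmu-miR-1193-3p (between the annotated hosts): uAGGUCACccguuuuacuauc
mmu-miR-453 (in Mirg): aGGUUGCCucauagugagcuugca
mmu-miR-496a-5p (in Mirg): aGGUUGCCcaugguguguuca
mmu-miR-494-5p (between the annotated hosts): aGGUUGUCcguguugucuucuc
mmu-miR-410-5p (in Mirg): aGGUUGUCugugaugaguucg

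The 36 listed members were, as a set, abundant in the DRN, and the level per kilobase of other imprinted genes was not computed. Positions are given in GRCm38. Per kilobase of exon, the median member reached 920 normalized counts, against 262 for all listed genes, and 30 of the 36 members lay above that all-gene median. The top 10% of genes held 15 members and the top 1% held 5. These 5 were Nap1l5, a nucleosome assembly protein-like gene inside the span of Herc3 (chr6:58905233-58907076, 35434 normalized counts per kb), Meg3 (chr12:109541001-109571726, 21048), Nnat, which encodes the small membrane protein neuronatin (12158), Gnas, which encodes the stimulatory G protein alpha subunit (11630), and Impact, a regulator of translation (8824). Snrpn, a splicing protein of neurons, followed with 8289 per kb, then Ndn, the MAGE family gene necdin, with 7789, and Peg3, a zinc finger gene, with 7013. At the other end stood Slc38a4, an amino acid transporter (34.6 per kb), Kcnq1ot1, the long noncoding RNA of the Kcnq1 domain (chr7:143203458-143296549, 45.4), Rtl1 (51.2) and Commd1 (55.2). Among the abundant genes, Gnas and Impact had all 16 libraries within 1.52-fold and 1.62-fold from lowest to highest, whereas Nnat spanned 2.97-fold.

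**Figure D1:**
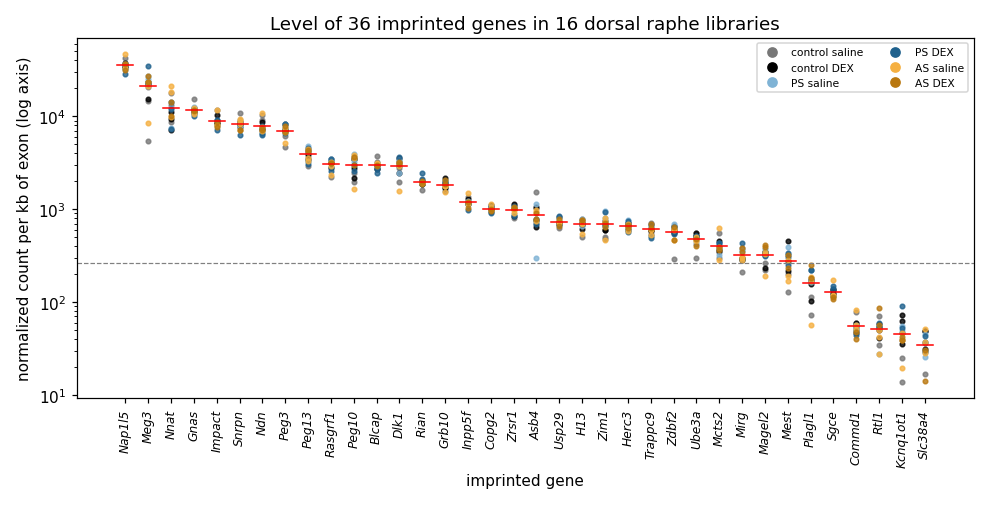
Normalized count per kb of exon (log axis) of the 36 listed imprinted genes in each of 16 libraries, colored by group, with the mean as a red line and the median of all listed genes (262) as a dashed line. Most members lie above the dashed line, Nap1l5 and Meg3 lead, and Meg3, Kcnq1ot1, Asb4 and Plagl1 have the widest spread.

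The members together took 1.64% to 2.73% of all normalized counts of a library (median 2.29%). Most of that range came from a single gene. Meg3 took 0.212% (con_sal_104) to 1.39% (dep1_dex_64), and without it the share lay between 1.34% and 1.47%. Meg3 was the most abundant listed gene in 5 libraries and was first or second in 13, but it ranked 18th in con_sal_104 and 9th in dep2_sal_40. Its values were 372531, 97161 and 262173 normalized counts in control saline, 425486, 280309 and 401883 in control DEX, 488196 and 456341 in PS saline, 393238, 427801 and 622789 in PS DEX, 421528, 379690 and 154198 in AS saline, and 418925 and 489463 in AS DEX. Both libraries far below the rest are the ones with the most genes at 0.

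Spread within groups was close to that of other genes. The SD within groups on the log2 scale had a median of 0.22 over members and 0.21 over all genes, and 22 of the 36 members lay above the all-gene median. From lowest to highest library, 16 members differed by more than 2-fold and 6 by less than 1.5-fold. Kcnq1ot1 (6.51-fold), Meg3 (6.41-fold), Asb4, which encodes a ubiquitin ligase subunit (5.09-fold), and Plagl1, a zinc finger transcription factor (4.50-fold), had the widest ranges. Copg2, a coatomer subunit, had the narrowest (1.24-fold). The extremes fell in few libraries, as they did for all genes: dep1_dex_64 held the lowest value of 9 members, con_sal_104 of 8 and dep2_sal_40 of 7, and dep2_sal_40 held the highest value of 9. Asb4 is an exception, with 1181 in dep1_sal_68 and 6004 in con_sal_114.

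**Figure D2:**
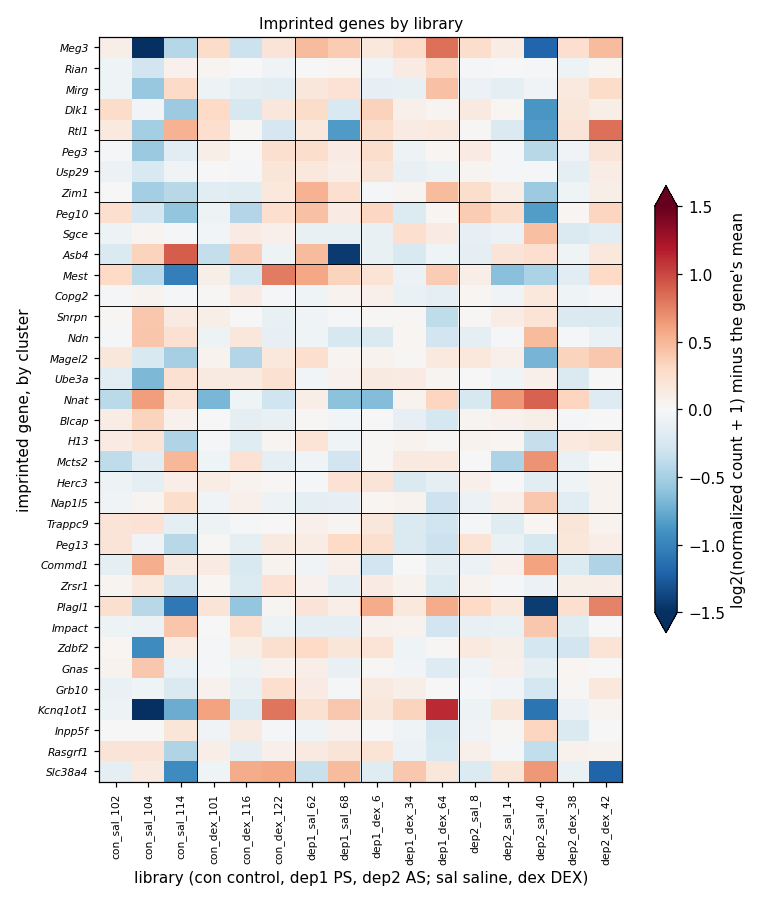
Each of the 36 members (rows, by cluster, lines between clusters) in each of 16 libraries (columns, lines between groups), as log2(normalized count + 1) minus the gene's mean over libraries. Many of the strongest colors stand in con_sal_104, con_sal_114, dep1_dex_64 and dep2_sal_40, which held the lowest value of 8, 5, 9 and 7 members, and rows of a cluster can differ in sign, as for Ndn and Magel2.

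To ask whether DEX changed imprinted genes, DEX libraries were set against saline libraries for each phenotype and for the mean of the 3 phenotypes. None of the 36 members passed an adjusted p under 0.1 in limma in any of these 4 comparisons. The share of all genes that passed was 1.26% for control, 0.703% for PS, 0.689% for AS and 4.31% for the average. An unadjusted p under 0.05 was reached by 3 members for control, 0 for PS, 3 for AS and 5 for the average, where the shares of all genes were 12.1%, 4.69%, 9.36% and 14%. The 5 of 36 (13.9%) in the average thus lay near the background. edgeR and DESeq2 on the recovered reads likewise called 0 members in each of the 4, with 4 and 6 members at an unadjusted p under 0.05 in the average. Without con_sal_104 and dep2_sal_40 the limma counts at that level were 2, 0, 0 and 1. For these other fits the share of all genes at that level was not counted. The median log2 fold change over members was 0.02 in the average, against 0.00 over all genes (19 of 36 higher). By parental copy, 12 of 21 paternally expressed members and 5 of 6 maternally expressed members had an estimate above 0 in the average, with medians of 0.04 and 0.06, and the other 9 members have mixed or no assigned copy. The 95% interval lay within 0.5 log2 units of 0 for 26 of the 36 members and within 1 for 33, so for the latter a change of 2-fold or more lies outside the interval.

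Kcnq1ot1, which silences its neighbors on the paternal copy, had the smallest p in control mice. It stood at 3643, 1283 and 2304 normalized counts in control saline and at 5832, 3323 and 6689 in control DEX. The arms overlapped, since con_dex_116 lay below con_sal_102. The log2 fold change was 1.20 ± 0.39 (SE; 95% interval 0.35 to 2.04, limma adjusted p = 0.255), and 0.80 (adjusted p = 0.494) without con_sal_104 and dep2_sal_40. In PS it was 0.22 ± 0.44 and in AS 0.31 ± 0.44, and the average was 0.58 ± 0.25 (adjusted p = 0.309). Without both libraries the AS estimate changed sign to -0.07 ± 0.34 and the average was 0.32 ± 0.19 (adjusted p = 0.625).

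Snrpn, the maternally silenced splicing gene of the Prader-Willi domain, had an estimate below 0 in all 3 phenotypes. Of its exonic bases, 27.3% are shared on the same strand with other annotated genes, so part of its reads is uncertain. Control saline libraries held 17989, 23543 and 19574 and control DEX libraries 18879, 17837 and 16475. PS saline libraries held 17118 and 17477 and PS DEX libraries 17924, 17911 and 13600, so that 2 of the 3 DEX libraries were the higher ones. AS saline libraries held 17921, 19125 and 20408 and AS DEX libraries 15318 and 15248, and these arms did not overlap. The average log2 fold change was -0.20 ± 0.08 (SE; adjusted p = 0.259, limma).

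Blcap, a small membrane protein gene that contains the paternally expressed Nnat within its span, also had lower values after DEX. It stood at 9738, 11352 and 9476 in control saline and at 9036, 8226 and 8346 in control DEX, which did not overlap. The log2 fold change was -0.25 ± 0.09 in control (adjusted p = 0.298, limma) and -0.15 ± 0.06 in the average (adjusted p = 0.239). Blcap was highest in con_sal_104, and over all settings tried the control estimate lay between -0.302 and -0.172. Arms did not overlap in 3 members in control, 2 in PS and 11 in AS, where 15.9%, 21.3% and 29.8% of all genes did not. In AS these included Rtl1, at 316, 268 and 173 in saline and 357 and 553 in DEX (log2 fold change 0.86 ± 0.35, adjusted p = 0.489), and Commd1, at 301, 339 and 490 in saline and 280 and 234 in DEX (-0.52 ± 0.23, adjusted p = 0.526). Without con_sal_104 and dep2_sal_40 these were 0.61 ± 0.31 and -0.32 ± 0.19. Microglia markers (6 of 6 listed) were lower with DEX: their mean log2 deviation lay between 0.060 and 0.140 in control saline and between -0.202 and -0.096 in control DEX. It did not overlap in PS (-0.0001 to 0.0903 in saline, -0.218 to -0.156 in DEX) or AS either (0.0416 to 0.530 in saline, -0.135 to 0.0067 in DEX). In AS 4 further marker scores did not overlap. The oligodendrocyte precursor score was higher with DEX (-0.282 to 0.176 in saline, 0.220 to 0.311 in DEX), and lower were the myelin (-0.044 to 0.256, against -0.158 to -0.120), endothelium (0.0593 to 0.224, against 0.0205 to 0.0333) and mural scores (0.194 to 0.321, against -0.203 to -0.0464). In PS the oligodendrocyte precursor score did not overlap either (-0.0761 to -0.0131 in saline, -0.0124 to 0.137 in DEX). The part of these cell types in the values of Snrpn, Blcap, Rtl1 and Commd1 was not tested.

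Meg3 itself did not pass in any DEX comparison. Its log2 fold change was 0.78 ± 0.46 in control, 0.00 ± 0.52 in PS and 0.64 ± 0.52 in AS, and the 95% interval of the average (0.47) ran from -0.15 to 1.09. Without con_sal_104 and dep2_sal_40, in which Meg3 was lowest, it was 0.22 ± 0.30 in control, 0.18 ± 0.33 in AS and 0.13 ± 0.18 in the average. Averages were 0.07 ± 0.07 for Rian and 0.06 ± 0.11 for Mirg, the other maternally expressed RNAs of its domain. Dlk1, which encodes a Notch pathway ligand, and Rtl1, both paternally expressed, had 0.23 ± 0.16 and 0.44 ± 0.20 (adjusted p = 0.537 and 0.333), or 0.13 ± 0.14 and 0.27 ± 0.17 without those libraries. The 27 members other than Kcnq1ot1, Snrpn, Blcap, Meg3, Rian, Mirg, Dlk1, Rtl1 and Commd1 lay between -0.23 ± 0.21 (Nnat) and 0.47 ± 0.25 (Plagl1) in the average.

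**Figure D3:**
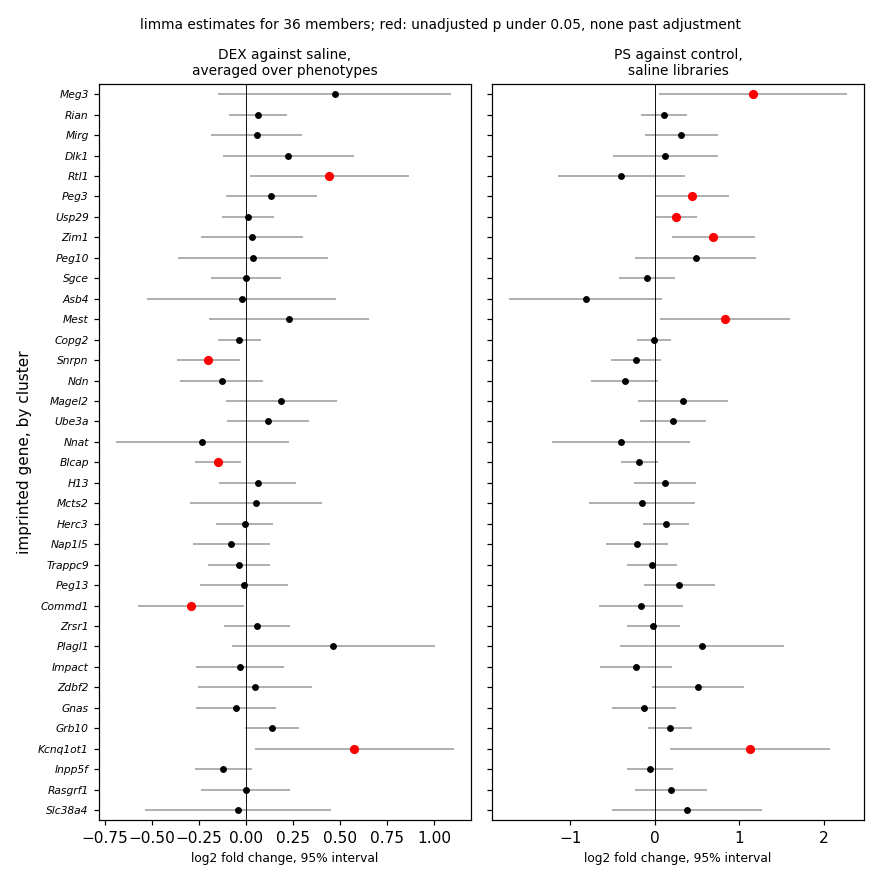
limma log2 fold changes with 95% intervals for the 36 members, ordered by cluster. At left DEX against saline averaged over the 3 phenotypes, at right PS against control in saline libraries, and red marks an unadjusted p under 0.05 (5 members at left, 6 at right), and none passed after adjustment.

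Stress was compared next in the saline libraries, which carry no DEX. No member, and no gene at all (0%), passed an adjusted p under 0.1 in limma for PS against control, AS against control or AS against PS. For PS against control, 6 of 36 members (16.7%) had an unadjusted p under 0.05, all higher in PS, where 7.67% of all genes were below 0.05 (4.65% higher and 3.01% lower). edgeR and DESeq2 called 0 members and had 4 and 6 at that level. Without con_sal_104 and dep2_sal_40 the count fell from 6 to 2, and without con_sal_104 the comparison rests on 2 libraries an arm. The share of all genes at that level was not counted for these other fits, so the fall is not read as a result about the members. For AS against control there were 0 members and for AS against PS 1, where 2.39% and 3.41% of all genes were below 0.05.

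Zim1, a maternally expressed zinc finger gene next to Peg3, had the smallest p of these. It stood at 5449, 3829 and 4072 normalized counts in control saline and at 7774 and 6497 in PS saline, with no overlap (log2 fold change 0.69 ± 0.23, 95% interval 0.21 to 1.18, limma adjusted p = 0.571). Over all settings tried the saline estimate lay between 0.56 and 0.85. Averaged over saline and DEX the PS effect was 0.46 ± 0.15 (adjusted p = 0.557). The AS saline libraries held 6518, 5810 and 3725 and overlapped with both.

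Kcnq1ot1 stood at 4520 and 5105 in PS saline, above all 3 control saline libraries, and its log2 fold change was 1.12 ± 0.44 (adjusted p = 0.571), or 0.73 without con_sal_104 and dep2_sal_40. Meg3 also lay higher in PS saline without overlap, with 1.16 ± 0.52 in saline (adjusted p = 0.571) and 0.77 ± 0.35 over both treatments (adjusted p = 0.557). Without those libraries these were 0.59 ± 0.33 and 0.49 ± 0.21. Over both treatments Kcnq1ot1 had 0.63 ± 0.30 (adjusted p = 0.557). The control arm of both genes holds con_sal_104, where each has its lowest value of the 16.

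Mest, a paternally expressed hydrolase gene known from maternal behavior, stood at 1273, 781 and 507 in control saline, 1542 and 1299 in PS saline, and 1105, 669 and 744 in AS saline. The log2 fold change was 0.83 ± 0.36 for PS against control (adjusted p = 0.571) and -0.79 ± 0.36 for AS against PS (adjusted p = 0.728), and the PS values did not overlap with either. Over all settings tried the estimate of Mest for PS against control lay between 0.50 and 1.17. Of its exonic bases, 23.1% lie opposite exons of Copg2. The paper reports high strand specificity of the reads for each sample, but the strand setting of the counting is not stated, so these reads may be shared. The remaining 2 with an unadjusted p under 0.05 were Peg3 (0.44 ± 0.20, or 0.28 ± 0.17 without con_sal_104 and dep2_sal_40) and Usp29 (0.25 ± 0.12). For PS against control in saline the 30 members other than these 6 lay between -0.82 ± 0.42 (Asb4) and 0.56 ± 0.45 (Plagl1). Arms did not overlap for 14 members in PS against control and 14 in AS against PS, but also for 28.5% and 23.6% of all genes, since the PS arm has 2 libraries. For AS against control 1 member did not overlap (4.49% of all genes).

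**Figure D4:**
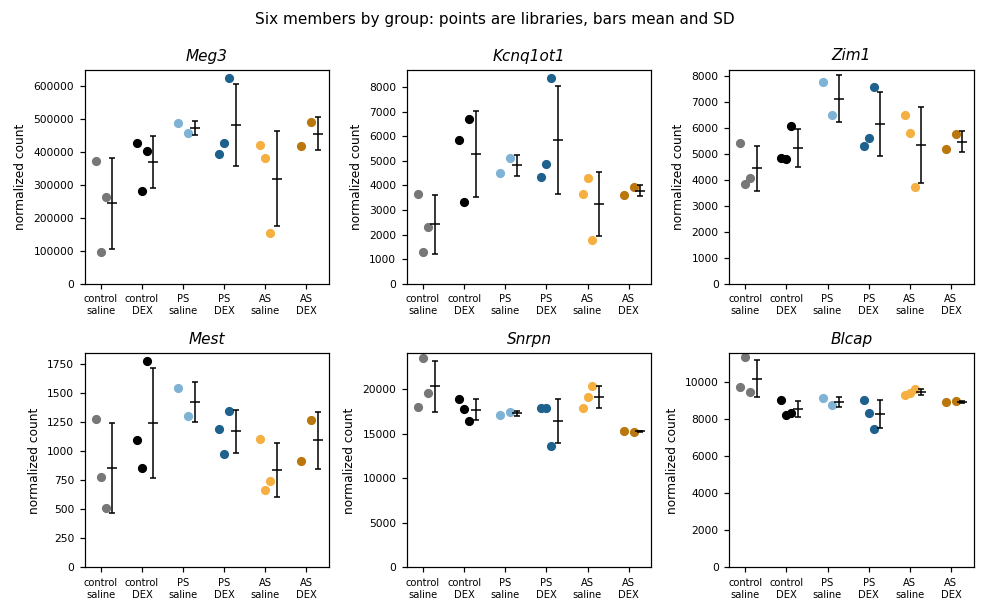
Normalized counts of Meg3, Kcnq1ot1, Zim1, Mest, Snrpn and Blcap by group, where points are libraries and bars the mean and SD of 2 or 3 libraries. Control saline holds the lowest Meg3 and Kcnq1ot1 values, PS saline libraries lie above control saline for Zim1 and Mest, and AS DEX libraries lie below AS saline for Snrpn.

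None of the 14 marker scores separated control saline from PS saline. The dopamine neuron score (3 of 4 markers listed) lay between -0.198 and 0.460 in control saline and stood at -1.09 in dep1_sal_68 and -0.0186 in dep1_sal_62, so the latter overlapped with control. The serotonin neuron score lay between -0.0753 and 0.429 in control saline and between -0.165 and 0.208 in PS saline. With the serotonin neuron score as a covariate 6 members had an unadjusted p under 0.05 for PS against control in saline, and with the myelin score 4. The share of all genes at that level was not counted for either fit.

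Averaged over saline and DEX, 0 of 36 members passed in limma for PS against control, AS against control or AS against PS, where 0%, 0.0138% and 0% of all genes did, and 2, 0 and 0 members had an unadjusted p under 0.05 (6.48%, 2.1% and 1.91% of all genes). edgeR and DESeq2 also called 0 members. The DEX effect did not differ between phenotypes for any member after adjustment, in limma, edgeR or DESeq2, as for all genes in limma (0%). At an unadjusted p under 0.05 there were 0, 1 and 1 members for PS against control, AS against control and AS against PS, where 2.1%, 4.02% and 2.9% of all genes were below it. Slc38a4 was one of them, at 127, 154 and 71.9 in control saline, 134, 206 and 209 in control DEX and 121, 159 and 219 in AS saline. In AS DEX it stood at 130 in dep2_dex_38 and had its lowest value of all 16 libraries in dep2_dex_42. This gave a difference between DEX effects of -1.53 ± 0.55 on the log2 scale (adjusted p = 0.941). Sgce was the other, with a difference between AS and PS of -0.47 ± 0.22 (adjusted p = 0.869), or -0.29 without con_sal_104 and dep2_sal_40. Ube3a, the ubiquitin ligase of Angelman syndrome, came next, with a difference between AS and control of -0.48 ± 0.24 (adjusted p = 0.941), or -0.21 without those libraries. Of its exonic bases, 27.3% lie opposite other annotated exons.

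A list of 39 genes known as imprinted in mouse, outside the member list, served for comparison, and 28 of them were listed. It was not limited to genes imprinted in brain, and whether these genes are imprinted in the DRN was not measured. DEX averaged over phenotypes changed 5 of the 28 (17.9%) in limma, 2 up and 3 down, against 0 of 36 members and 4.31% of all genes, and the difference between both lists was not tested. Both lists were chosen with earlier results of these data known. The shares are therefore not read as a result about imprinted genes in general. Atp10a, a phospholipid flippase, rose by 0.86 ± 0.11 (log2, adjusted p = 0.00048), from 379 to 624 normalized counts in the 8 saline libraries to 725 to 1004 in the 8 DEX libraries, with no overlap. Gab1, an adaptor of growth factor receptors, fell by 0.46 (adjusted p = 0.00757), from 1210 to 1617 in saline to 939 to 1199 in DEX, again with no overlap. Bcl2l1, which encodes the survival protein BCL-XL, rose by 0.35 ± 0.07 (adjusted p = 0.0112), with 4359 to 5861 in saline and 5620 to 7155 in DEX. Slc22a3, which encodes a low-affinity transporter of monoamines blocked by corticosteroids, fell by 0.51 (adjusted p = 0.031), and Gatm, the first enzyme of creatine synthesis, fell by 0.39 (adjusted p = 0.0549). Atp10a, Gab1 and Bcl2l1 were called in 27 of 27 other settings, Slc22a3 in 26 and Gatm in 21. Within single phenotypes Atp10a passed in control (adjusted p = 0.0914) and AS (adjusted p = 0.0569) but not in PS (adjusted p = 0.142), where its estimate of 0.83 ± 0.21 was close to the other 2, and the DEX effect was not shown to differ between them. For all stress comparisons 0 of the 28 passed in limma, with at most 2 at an unadjusted p under 0.05.

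Covariation within clusters was examined on values centered on their group means, so that differences between groups play no part. Among the listed members there are 28 pairs from the same cluster. Over the 16 libraries 2 of the 28 pairs passed a Benjamini-Hochberg adjusted p under 0.05 in an exact two-sided permutation test within groups (5184 arrangements, smallest p 0.00019), and 6 had an unadjusted p under 0.05. The test was not run on other gene pairs, so the share of all pairs at either level is not known. Neither count is therefore read as a result about the clusters. By Spearman's rho 0 pairs passed. The median of r was 0.14 within clusters (16 of 28 positive) and 0.02 between clusters (310 of 602 positive), and the median size of r was 0.40 and 0.41, against 0.34 for all pairs of listed genes. The difference was not tested, and these values are descriptions, since pairs share genes and libraries.

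Rian (chr12:109603940-109661716) and Mirg (chr12:109729764-109749460), noncoding RNAs whose microRNAs are shown above, had the highest r of the 28 (Pearson's r = 0.92, rho = 0.85, exact permutation p = 0.00328, adjusted p = 0.0459, and Spearman exact p = 0.00887, adjusted p = 0.124). Without the 2 libraries farthest from the median of Rian r was 0.84. Of all listed genes, 17 had a higher r with Rian than Mirg did, and 48 a higher r with Mirg than Rian did. Their starts are 125824 bases apart. Meg3, which starts upstream of both on the same strand, had lower values with each (r = 0.59 with Rian and 0.58 with Mirg, exact permutation adjusted p = 0.217 and 0.339), and 2752 genes had a higher r with it than Rian.

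Peg3 (chr7:6703892-6730431) and Usp29, a ubiquitin protease gene (chr7:6730578-6967219), are read in opposite directions from the start region shown above and also passed (r = 0.72, rho = 0.81, exact permutation p = 0.00328, adjusted p = 0.0459, and Spearman exact p = 0.0027, adjusted p = 0.0756). Leaving out the 2 libraries farthest from the median of Peg3, which are con_sal_104 and dep2_sal_40, r was 0.81 with values centered on the group means of all 16 libraries and 0.90 with values centered on those of the remaining 14. For Peg3, 1432 genes had a higher r than Usp29, and for Usp29, 184 had a higher r than Peg3. Peg3 and Zim1 had r = 0.69 (exact permutation adjusted p = 0.206).

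Some other pairs of neighbors had r below 0, but no such pair passed. Peg10, a retrotransposon-derived gene, and Sgce, which encodes epsilon-sarcoglycan, are both paternally expressed and start 99 bases apart on opposite strands, yet r was -0.79 (rho = -0.69, exact permutation p = 0.0214, adjusted p = 0.163), and -0.56 without the 2 libraries farthest from the median. In dep2_sal_40 Peg10 had its lowest value of the 16 (10869) and Sgce its highest (1823). Ndn and Magel2, paternally expressed MAGE family genes 30441 bases apart in the Prader-Willi domain, had the lowest r, -0.81 (rho = -0.78, exact permutation p = 0.0239, adjusted p = 0.163), and -0.75 without the 2 farthest. H13, a signal peptide peptidase gene, and Mcts2, a retrogene inside an H13 intron, had r = -0.77 (rho = -0.61, exact permutation p = 0.066, adjusted p = 0.207), or -0.47 without the 2 farthest. Mcts2 is close in sequence to its parent gene, so reads may have been split between them. Trappc9, a trafficking protein gene, and Peg13, a noncoding RNA inside it on the same strand, had r above 0, at 0.74 (rho = 0.67, exact permutation p = 0.0665, adjusted p = 0.207), or 0.50 without the 2 farthest. Without con_sal_104 and dep2_sal_40, on values centered on the remaining libraries, r was 0.91 for Trappc9 and Peg13. In that setting it was -0.71 for Ndn and Magel2, -0.49 for Peg10 and Sgce, and -0.69 for H13 and Mcts2. The exact permutation adjusted p were 0.162, 0.486, 0.5 and 0.699.

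**Figure D5:**
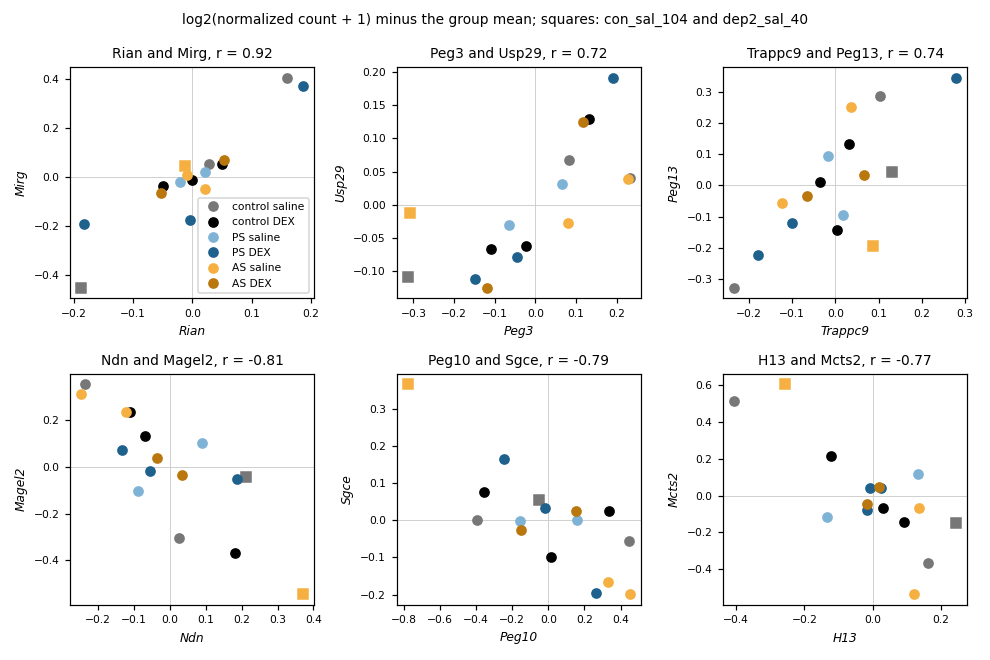
Centered log2 values (log2(normalized count + 1) minus the group mean) of 6 pairs of neighbors in 16 libraries, colored by group, with con_sal_104 and dep2_sal_40 as squares. Rian and Mirg, Peg3 and Usp29, and Trappc9 and Peg13 rise together, whereas Ndn and Magel2, Peg10 and Sgce, and H13 and Mcts2 run in opposite directions, with a square at the edge of several panels.

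The highest values between members were found across clusters and chromosomes. Magel2 and Plagl1 had r = 0.95, Peg10 and Plagl1 0.95, Nap1l5 and Inpp5f 0.94, Peg10 and Magel2 0.94, Impact and Nap1l5 0.94, Meg3 and Kcnq1ot1 0.93, and Dlk1 had 0.92 with both Magel2 and Peg10. Peg10, Dlk1, Magel2 and Plagl1 lie on 4 chromosomes, and their 6 pairs had r between 0.90 and 0.95, whereas Magel2 and Ndn lie in the same domain. All 4 had their lowest value in dep2_sal_40, where Nap1l5 and Inpp5f had their highest, and Meg3 and Kcnq1ot1 had their lowest in con_sal_104. Without these libraries and with values centered on the remaining 14, the 6 pairs had r between 0.81 (Dlk1 and Plagl1) and 0.90 (Magel2 and Plagl1), Nap1l5 and Inpp5f had 0.91, Impact and Nap1l5 0.93, and Meg3 and Kcnq1ot1 0.91. Of the pairs between clusters 40 of 602 (6.64%) had r of 0.8 or more in size, as had 2 of 28 (7.14%) within clusters and 4.64% of all gene pairs. These r are given as descriptions over 16 libraries, and within each library all genes share the same depth and dissection.

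Members were last set beside the scores of 14 marker lists, which gave 504 relations, and none passed an adjusted p under 0.05 in an exact permutation test within groups. Nnat had the smallest p, with r = 0.91 with the choroid plexus score (rho = 0.92, exact permutation p = 0.000772, adjusted p = 0.162, r = 0.87 without the 2 libraries farthest in that score) and r = -0.90 with the GABA neuron score (rho = -0.95, exact permutation p = 0.000772, adjusted p = 0.162, r = -0.92 without the 2 farthest). The choroid plexus score (3 of 4 markers listed) itself ranged from -1.66 to 1.23 within control saline alone. Ndn had r = 0.80 with the serotonin neuron score (rho = 0.72, exact permutation p = 0.00424, adjusted p = 0.227). The part of tissue makeup in the levels of Nnat and Ndn was not tested beyond these relations.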

How the data were processed

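PolyA RNA libraries of the DRN (16 in 6 groups) were analyzed as labeled. The study describes further libraries, which were not analysed here. Per the labels and the methods, the authors trimmed reads with fastp 0.20.1, aligned them with HISAT2 2.2.1 to mm10 (GRCm38), counted them with featureCounts (Subread 2.0, GENCODE vM22) and normalized them in DESeq2 1.36.0. The paper reports high strand specificity for each sample, but the strand setting of the counting is not given in the sources used here. The values used are the signal deposited by the authors, normalized counts (counts divided by 1 size factor per library). In each library 100% of the values became whole reads (tolerance 0.01 read) after multiplying by that factor, which gave 38207157 to 62447298 reads per library. The deposited tables of the authors' comparisons (log2 fold changes, p-values) were not used. Exon lengths, positions and overlaps came from GENCODE vM21, and 14493 of 14504 genes (99.9%) had a length, as all 36 listed members did.

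log2(normalized count + 1) was fitted in limma 3.58.1 (R 4.3.3) with 6 group means over all 16 libraries (eBayes with trend, 10 residual degrees of freedom), with Benjamini-Hochberg adjustment over 14504 genes in each of 13 contrasts and a call at an adjusted p under 0.1. Fold changes on this scale understate changes of low genes. The labels give replicates only a number, and the study's methods describe them as separate animals. edgeR 4.0.16 and DESeq2 1.42.0 were run on the recovered reads as alternatives, beside pseudocounts of 0.1 and 10, a minimum mean of 100, TMM and quantile scaling, library weights, marker scores as covariates, only the groups compared, and leaving out each library. Leaving out the 2 libraries with the most genes at 0 was chosen after seeing the data. Marker scores are means over listed markers of the log2 deviation from each gene's mean. Scripts were tested on simulated data. The members, lists and tests were chosen with earlier results of these data known. Named members are those called in any contrast, the 3 with the smallest p in each family of contrasts, the 6 most abundant per kb and those of the 5 pairs with the largest r in size; others named with values were chosen after seeing them.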

Additional observations from a re-analysis of the deposited data

How the results depend on the processing

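No paired analysis was possible because the library numbers differ between groups. The count of members called stayed at 0 in 358 of 363 recomputed counts. With the serotonin neuron score as a covariate it was 1 for DEX in control (Kcnq1ot1, adjusted p = 0.0938), where 2.43% of all genes passed. The members at an unadjusted p under 0.05 went from 3 to 4 there, from 3 to 0 in AS and from 5 to 0 in the average. The share of all genes at that level was not counted in this fit. With library weights the count of members called was 3 for DEX in AS (Mirg and Trappc9 higher, Snrpn lower), where 9.67% of all genes passed. It was 1 for DEX averaged over phenotypes (Blcap, adjusted p = 0.0825), where 9.16% did. Without single libraries it ranged from 0 to 1 for DEX in control: Kcnq1ot1 passed without con_sal_102 (adjusted p = 0.0959) and Ube3a without con_sal_114 (adjusted p = 0.0556). The share of all genes called in these fits is not given here, so neither call is read as a result about the members. The cause of these changes was not tested. The log2 fold changes of the 12 named results kept their sign in all 335 alternatives. These 12 were picked by their small p in the same libraries, so a kept sign was likely beforehand. The estimate of Kcnq1ot1 for DEX in AS, which is not among them, changed sign, as given above. That of Kcnq1ot1 for DEX in control ranged from 0.80 to 1.56 with limma, edgeR or DESeq2 adjusted p between 0.0938 and 0.85. The 5 other imprinted genes called for DEX averaged over phenotypes ranged from 3 to 6 without single libraries, with 3 (Atp10a, Gab1 and Bcl2l1) without dep2_dex_42.

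The 2 correlated pairs depended on the settings. The count was 0 with TMM scaling, 1 with quantile normalization, 0 by Spearman's rho and 0 without con_sal_104 and dep2_sal_40, where Rian and Mirg had r = 0.88 and Peg3 and Usp29 r = 0.90 (adjusted p = 0.122 for both, exact permutation) on values centered on the remaining 14 libraries. Without single libraries it ranged from 0 to 2: it was 2 without dep2_sal_14 or dep2_sal_40, 1 without dep1_dex_6 and 0 without any other. Fewer libraries leave fewer arrangements. Over all genes DESeq2 called more than limma for DEX: 437 against 183 in control, 274 against 100 in AS, and 187 in PS, where limma called 0.703% of all genes. For AS against control averaged over treatments the counts were 37 in DESeq2, 7 in edgeR and 2 in limma, and in saline DESeq2 called 4 genes for PS against control and 11 for AS against control, where limma called 0. With 2 or 3 libraries a group, the median 95% interval of a member reached 0.24 log2 units to either side for DEX averaged over phenotypes, 0.42 for PS against control in saline and 0.60 for the difference of DEX effects between AS and PS.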
